A study of Mus musculus with 50 samples.

Results

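The mouse genes named Zfp followed by a number encode zinc finger proteins. The members described here are the 257 protein-coding genes of this kind, Zfp36 left out, whose mean level in CPM (counts scaled to library total) was at least 3 CPM over all 50 libraries. They were chosen from 355 such genes, among 21647 genes in the counts table, and 98 fell under the level. Because the mean runs over both genotypes, a member can pass through one of them. With a mean under 3 CPM in KO libraries, 8 members passed through WT libraries (Zfp93, Zfp111, Zfp286, Zfp473, Zfp551, Zfp808, Zfp820 and Zfp870, 6 of them with a KRAB box), and no member passed through KO libraries alone. For Zfp820 the mean was 1.23 CPM in KO and 10.6 CPM in WT libraries, and for Zfp111 it was 0.67 and 5.63 CPM. The mean of 7 of the 8 was under 3 CPM without WT mice 1 and 4, Zfp286 (3.16 CPM) being the exception. A difference of these 8 between genotypes is in part set by the choice. CD8+ T cells were isolated with anti-CD8a beads from spleens of 10-week-old mice of the strain label C567BL/6J, either knockout (KO) or wild type (WT), with 5 mice of each genotype. Cells of every mouse were sequenced before activation (0h, labelled naive) and after 2h, 6h, 12h and 24h on plate-bound anti-CD3e with soluble anti-CD28 in RPMI medium with 5% FBS. Each of the 10 groups of genotype and time held 5 libraries, and library totals ran between 9571625 and 31293872 counts with a median of 23548632. The knockout is of the whole mouse and not of T cells alone, and mice were not pooled.

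Most of these proteins bind DNA through repeated C2H2 fingers, each of which holds a zinc ion between 2 cysteines and 2 histidines. Many also carry a KRAB box, a short domain that recruits Trim28 (KAP1), which in turn brings the histone H3 lysine 9 methyltransferase Setdb1 and heterochromatin protein 1. In mammals this arrangement is known for silencing endogenous retroelements and for keeping imprinted genes methylated. Members without a KRAB box are more diverse and include promoter-binding activators and repressors, chromatin subunits, and proteins that act on RNA, ribosomes or the mitotic spindle.

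A KRAB A-box was found in the translated longest coding sequence of 143 members (at least 10 of 16 conserved positions), and the 114 others did not reach this cutoff. Members said to have no KRAB box are those under the cutoff, and a box that differs from the pattern could be missed. KRAB members carried a median of 12 C2H2 fingers, against 7 in the other members, with up to 40 in 1 protein. Fewer than 3 fingers were found in 20 members, of which 1 was a KRAB member, and a SCAN domain, which joins such proteins in pairs, was found in 11. KRAB members had lower levels per kilobase of exon, with a median over all libraries of 3.82 CPM per kb against 7.31 CPM per kb in the other members. They also lay closer together in the genome. The median distance to the nearest member was 21.2 kb for KRAB members and 1837 kb for the others, and 119 KRAB and 43 other members had another member within 500 kb. Chromosome 7 held 69 members, chromosome 17 held 34, chromosome 13 held 24 and chromosome 8 held 19. Per kilobase of exon, Zfp207, which helps load the checkpoint protein Bub3 on kinetochores, had the highest mean level at 60.4 CPM per kb. The ribosome collision sensor Zfp598 (37.4 CPM per kb) and Zfp281 (33.2 CPM per kb) followed it, and the lowest level was 0.292 CPM per kb in Zfp111. Just inside the threshold of 3 CPM lay Zfp551 at 3.03 CPM and Zfp111 at 3.15 CPM, and just outside it lay Zfp647 at 2.9 CPM and Zfp184 at 2.67 CPM.

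Related members can share reads, and the sources used here do not say whether the counting used strand or how it treated reads that match several places. Zfp934 shared 51.2% of its 20-residue words with Zfp808, and 8 KRAB members shared at least 20% with another gene, so their counts are less certain. From start to end with introns included, 25 members overlapped a gene on the opposite strand and 6 overlapped one on the same strand. Whether exons overlap was not looked at. Among the genes named in the following text, Zfp652 overlaps Abi3 on the opposite strand and B130006D01Rik and Phospho1 on its own, Zfp91 overlaps Cntf, and Zfp687, Zfp335, Zfp296, Zfp553 and Zfp286 overlap antisense genes.

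Libraries of WT mice 1 and 4 stood apart from the other 8 mice. At 0h the summed level of 4 thymocyte markers was 7.76 to 56.9 CPM in KO libraries and 895 to 1194 CPM in WT mice 1 and 4, with the other WT mice at 8.34 to 30.3 CPM. The sum of 7 mitosis genes at 0h was 208 to 802 CPM in KO libraries and 3648 to 4535 CPM in WT mice 1 and 4, with the other WT mice at 72 to 139 CPM. The 6 CD8 T cell markers were detected in every library, and their sum at 0h was 4981 to 7061 CPM in KO libraries and 2059 to 2675 CPM in WT mice 1 and 4, with the other WT mice at 5695 to 15789 CPM. The thymocyte sum of WT mice 1 and 4 was still 27.1 to 146 CPM at 24h, against 0.374 to 1.01 CPM in KO libraries. The WT library of mouse 3 at 0h had the lowest TMM normalization factor, 0.783, where the highest was 1.12. How far these cells contribute to the values of the members was not tested. WT values are from all 5 mice unless others are named, and counts of calls in WT cells are given also without WT mice 1 and 4, as are WT values of named genes that gain or lose a call or move by over 1.5 times. In bulk libraries, fewer cells of one type and less RNA per cell cannot be told apart.

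The members that changed most with activation were Zfp52, Zfp948 and Zfp945, KRAB members with 14, 15 and 18 fingers that lie in the same run of genes on chromosome 17. Zfp52 (chr17:21535539-21562601, plus strand) and Zfp948 (chr17:21567008-21588699, plus strand) are neighbours 4.41 kb apart, and Zfp945 (chr17:22846697-22867134) lies on the minus strand. Their promoters, 250 bases before to 50 bases after the gene start in the RefSeq table of build GRCm38.p6, are shown because the neighbours rose together while Zfp945 fell. The windows are chr17:21535289-21535588 (plus), chr17:21566728-21567027 (plus) and chr17:22867085-22867384 (minus). Capitals mark the letters AGTGGGAGG, noticed on reading these sequences and found in each of them, and in Zfp945 also the ETS core CCGGAAG.
Zfp52: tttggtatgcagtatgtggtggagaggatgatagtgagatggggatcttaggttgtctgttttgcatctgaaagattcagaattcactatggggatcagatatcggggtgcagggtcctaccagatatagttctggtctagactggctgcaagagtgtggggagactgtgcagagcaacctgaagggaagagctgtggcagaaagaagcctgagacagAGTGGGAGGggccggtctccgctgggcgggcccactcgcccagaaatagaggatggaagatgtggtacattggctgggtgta
Zfp948: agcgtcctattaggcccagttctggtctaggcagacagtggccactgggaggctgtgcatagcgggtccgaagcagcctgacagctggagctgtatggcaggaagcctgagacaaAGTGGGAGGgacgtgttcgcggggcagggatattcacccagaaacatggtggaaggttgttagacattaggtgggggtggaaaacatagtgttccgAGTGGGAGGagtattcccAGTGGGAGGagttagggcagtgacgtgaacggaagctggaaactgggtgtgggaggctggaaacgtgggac
Zfp945: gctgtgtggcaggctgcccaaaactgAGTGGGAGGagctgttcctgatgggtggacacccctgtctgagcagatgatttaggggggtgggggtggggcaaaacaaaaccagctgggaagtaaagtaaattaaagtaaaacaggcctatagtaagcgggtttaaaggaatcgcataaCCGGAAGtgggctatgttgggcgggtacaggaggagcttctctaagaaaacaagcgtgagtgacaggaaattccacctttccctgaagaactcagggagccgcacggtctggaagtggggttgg

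The 9 letters AGTGGGAGG were picked from these 3 promoters, so a count that includes them is in part set by that choice. With the 3 left out and both strands searched, the letters stood in 4 of the 17 other promoters in the table of members of this chromosome 17 run (those of Zfp53, Zfp820, Zfp946 and Zfp983), in 3.5% of 143 other KRAB promoters, in 1.68% of 119 promoters of other members and in 1.31% of all 32851 promoters. These 4 are among the 5 KRAB promoters counted, so the shares of the run and of KRAB members are not separate. No test was made of these shares. A promoter was in the table for 216 of the 257 members, and the 5 motifs looked for in all of them were searched on both strands in the same windows. The ETS core CCGGAAG was found in 21.9% of KRAB promoters, 18.5% of promoters of other members and 8.86% of all promoters. The initiator-like YY1 letters AAGATGGC stood in 6.16%, 4.2% and 2.75%, the cyclic AMP element TGACGTCA in 3.42%, 5.88% and 1.79%, and the E-box CACGTG in 9.59%, 5.04% and 7.15% of the same sets. The AP-1 letters TGANTCA were less frequent in both member sets, at 3.42% and 4.2%, than in all promoters, at 7.81%. In the 20 promoters of the chromosome 17 run the E-box stood in 7 (35%) and the ETS core in 3 (15%). The YY1, cyclic AMP and AP-1 letters stood in none of them. The ratio of observed to expected CpG had a median of 0.576 in KRAB promoters, 0.78 in promoters of other members and 0.384 in all promoters, and it was 0.29 in Zfp52, 0.485 in Zfp948 and 0.381 in Zfp945. Such matches describe the letters in these windows only.

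Zfp52 rose at every time after activation in both genotypes. Levels from here on are CPM after TMM normalization, mice in the order 1 to 5. In KO cells Zfp52 stood at 16.1, 15.4, 16.3, 13.3 and 17.4 CPM at 0h, at 139, 108, 105, 106 and 97 CPM at 2h, and at 74.5, 62.3, 56.5, 52.8 and 63.6 CPM at 24h. WT cells had 5.5, 18.8, 5.4, 6.55 and 17.8 CPM at 0h, at 26.1, 75, 68.3, 39.8 and 82.9 CPM at 2h, and at 72.9, 62, 71.7, 46.3 and 69.8 CPM at 24h. No activated library overlapped the 0h libraries of its genotype, and WT mice 1, 3 and 4 were low at 0h. The log2 change against 0h in KO cells was 2.82 ± 0.33 (SE) at 2h and 2.93 at 6h, then 2.64 at 12h, and it was 1.98 at 24h. WT cells gave 2.42 ± 0.32 at 2h and 3.57 at both 6h and 12h, then 2.57 at 24h, with adjusted p of 1.54e-06 or less at each time in both genotypes (edgeR quasi-likelihood test, Benjamini-Hochberg over all genes tested). Every KO library exceeded every WT library at 2h, where KO against WT gave a log2 difference of 0.93 (adjusted p = 0.0417), and this call was lost without WT mice 1 and 4 (0.54, adjusted p = 0.104).

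Zfp948 took a similar course with its highest levels at 6h. In KO cells it stood at 5.18, 6.06, 7.01, 4.44 and 4.76 CPM at 0h, at 52.9, 68.4, 69.6, 53.1 and 56.3 CPM at 6h, and at 30.4, 27.1, 23.7, 24.8 and 26.1 CPM at 24h. In WT cells it stood at 8.44, 6.08, 3.47, 7.7 and 8.13 CPM at 0h, at 42.5, 102, 115, 47.8 and 141 CPM at 6h, and at 30.6, 28.1, 30.2, 18.4 and 28.8 CPM at 24h. The 0h libraries lay below all later ones in both genotypes, and at 6h WT mice 1 and 4 lay below every KO library while the other WT mice lay above every one. The log2 change in KO cells was 2.43 at 2h, then 3.45 ± 0.24 (adjusted p = 1.8e-14), 2.61 and 2.27 at the following times, and in WT cells 2.20, 3.72 ± 0.24 (adjusted p = 3.42e-15), 3.08 and 2.00. At 12h Zfp948 was lower in KO than in WT cells by a log2 difference of -0.79 (adjusted p = 0.0153), and of -0.89 without WT mice 1 and 4 (adjusted p = 0.000127).

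Zfp945 fell late. KO libraries held 68, 53.7, 43.5, 55.8 and 37.4 CPM at 0h, 66.4, 48.3, 53.5, 53.5 and 43.7 CPM at 2h, 19.5, 14.6, 13, 14.3 and 24.1 CPM at 6h, and 2.69, 3.15, 3.45, 4.09 and 3.57 CPM at 24h. WT libraries held 17.5, 60.5, 53, 22.8 and 65.5 CPM at 0h, 58.8, 24.5, 13.7, 44.3 and 22.4 CPM at 6h, and 22.8, 4.06, 3.89, 7.44 and 3.63 CPM at 24h. WT mice 1 and 4 lay below the other WT mice at 0h and above them at 6h and 24h. The log2 change in KO cells was 0.04 at 2h, then -1.59 ± 0.43 and -2.96, and -3.93 ± 0.48 at 24h (adjusted p = 1.12e-08), and in WT cells 0.08, -0.42, -1.18 and -2.39 ± 0.45 (adjusted p = 3.74e-05). The WT changes were -0.17, -1.58, -2.71 and -3.95 without WT mice 1 and 4. A KO against WT difference of -1.55 at 12h (adjusted p = 0.018) was -0.48 without those mice (adjusted p = 0.13).

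**Figure D1:**
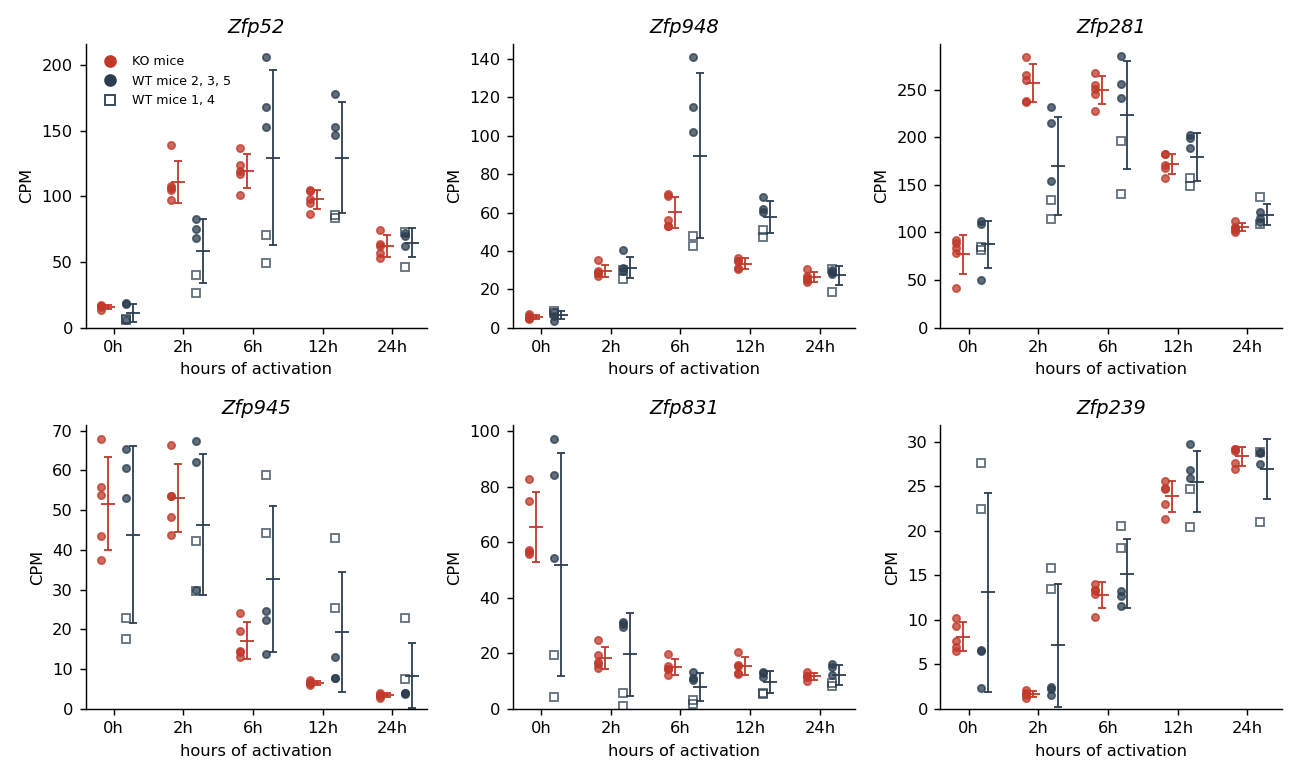
TMM-normalized CPM against hours of activation for 6 members, 1 panel each, with KO left of WT, 1 point per mouse (n = 5), mean and SD beside the points, and WT mice 1 and 4 as open squares. Zfp52 and Zfp948 stand above their 0h libraries at each later time, and Zfp945 is at 2.69 to 4.09 CPM in KO libraries at 24h.

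All 257 members passed the filter on low counts and were among 13294 genes tested with edgeR. More of them were higher than lower 2h after activation, except in KO cells under scaling by library totals. At 24h more were lower than higher, with a share of lower members near that of all genes and a share of higher members below it. At 2h, 70 members were higher and 43 lower than at 0h in KO cells, against 20.3% of all genes tested called higher and 19.6% called lower. In WT cells 59 rose and 22 fell at 2h, where 14% of all genes rose and 16.2% fell (65 and 58 without WT mice 1 and 4, against 21.8% and 27.7% of all genes). The median log2 change at 2h was 0.12 in KO and 0.18 in WT cells, against -0.08 over all genes in each. Of the calls at 2h, 55 members rose in both genotypes, which is 78.6% of those in KO and 93.2% of those in WT cells, and no member was called in opposite directions. The overlap of calls was not counted over all genes, so it is not shown to be particular to the members.

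At 6h and 12h the counts of KRAB members lay further apart between the genotypes, a difference tested further on. At 6h KO cells had 69 members higher and 37 lower (26.8% and 22.4% of all genes), with 30 KRAB members higher and 22 lower. That direction was not stable. It turned to 19 higher and 35 lower with library totals, 25 and 35 with RLE size factors, 29 and 39 with DESeq2, 32 and 42 with only the libraries compared, 32 and 35 with the mouse as a fixed block, 33 and 49 without WT mice 1 and 4, and 30 and 38 without WT mouse 1, which enter this comparison through the shared estimate of spread. WT cells had 79 higher and 26 lower (20.2% and 19.7% of all genes), with 51 KRAB members higher and 5 lower. Leaving out WT mice 1 and 4 gave 90 higher and 53 lower in WT cells (28.3% and 31.1% of all genes), with 45 KRAB members higher and 25 lower. The median change of KRAB members was -0.05 in KO and 0.37 in WT cells, and 0.18 in WT cells without those mice. At 12h 58 members were higher and 55 lower in KO cells (27.8% and 25% of all genes), against 46 higher and 31 lower in WT cells (19.3% and 20.2% of all genes). KRAB members then had 20 higher and 37 lower in KO cells, with a median of -0.20, and 28 higher and 8 lower in WT cells, with a median of 0.26. In WT cells without mice 1 and 4 they had 32 higher and 26 lower, with a median of 0.17, among 63 members higher and 60 lower (27.8% and 32% of all genes). Members without a KRAB box had 38 higher and 18 lower in KO cells (23 each with library totals) and 18 higher and 23 lower in WT cells (16 higher and 14 lower with library totals, 31 and 34 without WT mice 1 and 4).

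At 24h in KO cells 36 members were higher (14%) and 80 lower (31.1%) than at 0h, against 30.7% and 28% of all genes. In WT cells 17 were higher (6.61%) and 69 lower (26.8%), against 19.9% and 24.2%, and without WT mice 1 and 4 there were 42 higher (16.3%) and 99 lower (38.5%), against 32.4% and 31.8%. The share of lower members was thus near that of all genes with all mice, and the share of higher members was below it. KRAB members made up most of those lower, with 11 higher and 55 lower in KO cells (38.5% of them lower, median log2 change -0.37) and 6 higher and 44 lower in WT cells (30.8% lower, median -0.36). Leaving out WT mice 1 and 4 gave 21 KRAB members higher and 60 lower in WT cells (42% lower, median -0.40). The other members had 25 higher and 25 lower in KO cells (19 higher and 32 lower with library totals) and 11 higher and 25 lower in WT cells (21 and 39 without WT mice 1 and 4), with medians of 0.05 and -0.12. Over all genes the medians at 24h were 0.02 in KO and -0.08 in WT cells. Against 2h, 114 members were lower at 24h and 47 higher in KO cells (29.4% and 31.9% of all genes), and in WT cells 106 were lower and 15 higher (23.6% and 22.8% of all genes). In WT cells 110 were then lower and 50 higher without WT mice 1 and 4 (30% and 34.4% of all genes), and 115 lower and 36 higher with the mouse as a fixed block. Both genotypes called 57 members lower at 24h than at 0h, which is 71.2% of those in KO and 82.6% of those in WT cells, again without a count over all genes. The 24h mean was the lowest of the 5 times for 76 KRAB members (53.1%) in KO and 99 (69.2%) in WT cells.

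Levels summed over the 143 KRAB members showed the same course. From 0h to 24h the sum in KO cells was 2979 ± 256, 3940 ± 336, 3272 ± 131, 2890 ± 136 and 2418 ± 33.9 CPM (mean ± SD, n = 5). That in WT cells was 3229 ± 495, 4178 ± 621, 4285 ± 502, 3810 ± 322 and 2649 ± 323 CPM (n = 5). KO and WT libraries overlapped at 0h, 2h and 24h but not at 6h, with 3057 to 3411 CPM in KO and 3780 to 4959 CPM in WT libraries, nor at 12h, with 2749 to 3104 CPM in KO and 3454 to 4246 CPM in WT libraries. WT mice 1 and 4 were not the lowest WT libraries at these times. The highest mean sum was at 2h in KO and at 6h in WT cells. The 114 other members summed to 5415 ± 439 CPM at 0h, 6818 ± 246 at 6h and 5866 ± 42.1 at 24h in KO cells, and to 6338 ± 1039, 7251 ± 224 and 6199 ± 346 CPM at these times in WT cells.

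**Figure D2:**
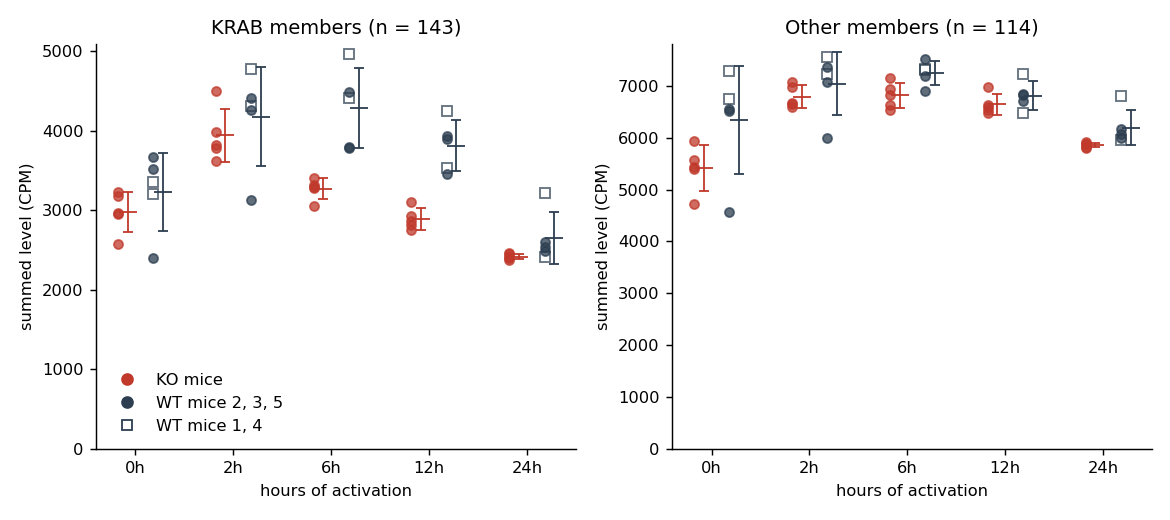
Summed TMM-normalized CPM of the 143 KRAB and 114 other members against hours of activation, KO left of WT, with 1 point per mouse, mean and SD beside the points (n = 5), and WT mice 1 and 4 as open squares. KRAB sums of KO libraries lie at 3057 to 3411 CPM at 6h, under the WT libraries at 3780 to 4959 CPM.

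**Figure D3:**
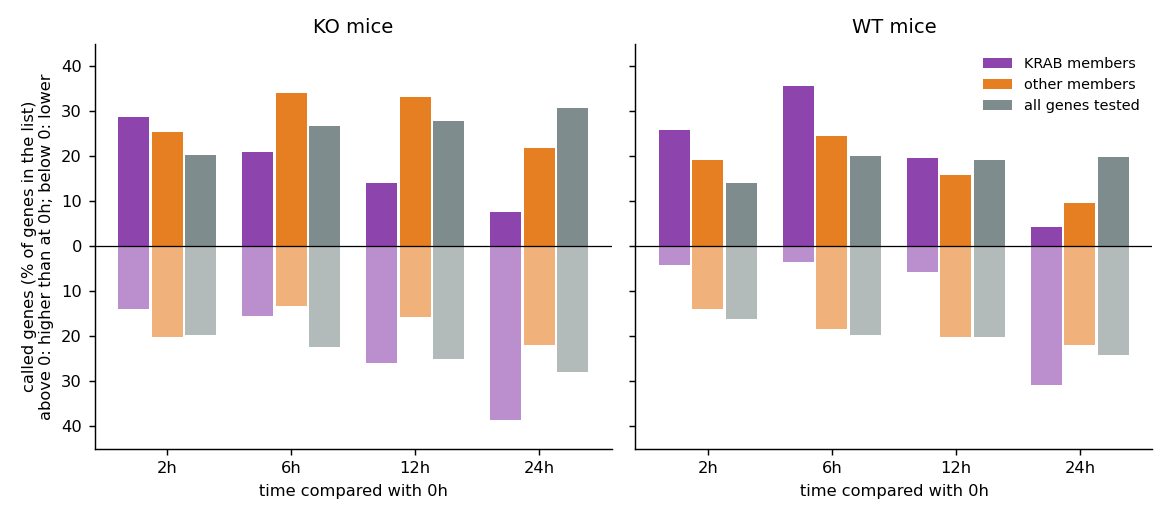
Percent of KRAB members, other members and all genes tested that edgeR called higher (above the line) or lower (below it) than at 0h, at each time, KO panel left of WT. At 24h, 38.5% of KRAB members were lower in KO and 30.8% in WT cells.

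The split of calls depends on scaling in KO cells. With library totals in place of TMM, the calls at 2h, 6h and 12h in KO cells were 49 higher and 57 lower, 45 higher and 53 lower, and 34 higher and 73 lower, and with RLE size factors 59 higher and 52 lower at 6h and 45 higher and 70 lower at 12h. In WT cells at 12h library totals gave 40 higher and 19 lower. Library totals moved the all-gene median to between -0.25 and -0.14 in the KO comparisons with 0h, and to between -0.06 and -0.01 in the WT ones, so the size of a rise in KO cells is relative to that choice. Without WT mice 1 and 4 in the fit, KO cells at 12h had 68 members higher and 80 lower. With only the libraries of the 2 groups compared in the fit, WT calls were far fewer, with 2 members at 2h, then 14, 10 and, at 24h, 28 (2 higher and 26 lower). KO calls were then 143, 143, 150 and 169 at the same times. At 12h leaving out WT mouse 2 gave 46 calls in WT cells, against 77 with all mice.

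In both genotypes 6 members were higher than at 0h and 5 lower at each of the 4 later times, comparisons that share their 0h libraries. The same count was not made over all genes, so whether these numbers are unusual for the members is not known. Beside Zfp52 and Zfp948, the higher ones were Zfp62, Zfp281, Zfp330 and Zfp850. Zfp281 binds GC-rich promoters and is known in mouse embryonic stem cells for restraining pluripotency genes. At 2h it stood at 260, 266, 238, 237 and 285 CPM in KO cells, against 78.2, 91.7, 41.9, 84 and 89.2 CPM at 0h. In WT cells it stood at 114, 215, 154, 134 and 232 CPM at 2h, against 85, 109, 50.4, 81.7 and 112 CPM at 0h. The 2h and 0h libraries did not overlap in either genotype, and every KO library at 2h exceeded every WT library. Zfp281 had a log2 change of 1.74 ± 0.19 in KO and 0.96 ± 0.18 in WT cells at 2h (adjusted p = 8.76e-05), and of 0.45 in KO and 0.44 in WT cells at 24h, where the WT call was lost without WT mice 1 and 4 (0.35). Zfp330, a nucleolar protein, changed by 0.86 in KO and 0.89 in WT cells at 2h and by 0.55 and 0.60 at 24h. Zfp850 changed by 1.45 and 1.14 at 2h, and Zfp62 by 1.23 and 0.89.

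The members lower at all 4 times in both genotypes were Zfp287, Zfp414, Zfp652, Zfp692 and Zfp831. Zfp831 stood at 10.1, 11.3, 13.4, 11.9 and 11.7 CPM at 24h in KO cells, against 82.7, 74.9, 56.3, 55.9 and 57.3 CPM at 0h, with no overlap. In WT cells Zfp831 stood at 9.43, 16.3, 15, 8.06 and 12.3 CPM at 24h, against 4.24, 97.3, 54.2, 19.2 and 84.1 CPM at 0h, and WT mouse 1 was higher at 24h than at 0h. Its log2 change at 24h was -2.49 in KO and -2.08 in WT cells. Zfp652, which in human cells partners the corepressor CBFA2T3, had its lowest KO levels at 24h, 26, 28.5, 26.2, 29.1 and 28.8 CPM, against 170, 182, 118, 152 and 139 CPM at 0h. In WT cells it had 53.8, 32.1, 30.3, 34.1 and 28.2 CPM at 24h, against 82.6, 209, 80, 103 and 207 CPM at 0h, again with no overlap. The log2 change of Zfp652 at 24h was -2.45 in KO and -1.93 in WT cells. Zfp287 changed by -1.63 and -1.18 at 24h (-1.95 in WT cells without mice 1 and 4), Zfp414 by -0.58 and -0.73, and Zfp692 by -0.32 and -0.59.

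Among members with the largest change at single times, Zfp382 and Zfp619 rose early, by a log2 change of 2.36 and 1.66 in KO and 1.32 and 1.32 in WT cells at 2h. Zfp382 was still 2.07 higher in KO cells at 24h, while Zfp619 was back at -0.44, not called. Zfp579, Zfp14 and Zfp658 were late fallers, with -2.15, -2.17 and -2.08 in KO cells and -1.64, -1.30 and -2.21 in WT cells at 24h (-2.54, -2.32 and -2.76 without WT mice 1 and 4). Zfp808 and Zfp934, the pair that shares coding words, were lower at 2h in KO cells with a log2 change of -2.62 and -1.72, and at 24h had 0.29 and 0.48, neither called. In WT cells their values at 2h were -0.85 and -0.32, not called with all mice and called without WT mice 1 and 4 (-1.52 and -0.78). Zfp239, a member with 7 fingers and no KRAB box, dipped and then rose. It stood at 7.59, 6.52, 6.94, 9.31 and 10.2 CPM at 0h, at 1.54, 1.25, 1.63, 1.79 and 2.07 CPM at 2h and at 24.7, 21.3, 23, 24.8 and 25.6 CPM at 12h in KO cells, with log2 changes of -2.29 and 1.56. WT mice 1 and 4 held 27.6 and 22.4 CPM of Zfp239 at 0h, and the other WT mice 2.31 to 6.57 CPM. The WT change at 2h was -0.87 (not called), and -1.36 without those mice (adjusted p = 9.08e-06).

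The longest run of members with gaps of at most 500 kb spans chr17:21008903-23564238 and holds 20 members, 19 with a KRAB box, Zfp52, Zfp948 and Zfp945 among them. Neighbours in it did not move as one. In KO cells 8 rose (40%, against 20.3% of all genes) and 2 fell (10%, against 19.6%) at 2h, whereas 3 rose at each later time (15%, against 26.8% to 30.7%) and 5, 8 and 9 fell (25%, 40% and 45%, against 22.4%, 25% and 28%). In WT cells 9 rose (45%, against 14% of all genes) and 1 fell (5%, against 16.2%) at 2h. At 6h 9 rose (45%, against 20.2%) and none fell (against 19.7%). At 12h 5 rose (25%, against 19.3%) and 1 fell (5%, against 20.2%). At 24h 2 rose (10%, against 19.9%) and 5 fell (25%, against 24.2%). In WT cells without mice 1 and 4 there were 8 higher and 3 lower at 2h, 6 and 4 at 6h, 5 and 3 at 12h, and 4 and 8 at 24h. As shares 40%, 30%, 25% and 20% were then higher, against 21.8%, 28.3%, 27.8% and 32.4% of all genes. The lower shares were 15%, 20%, 15% and 40%, against 27.7%, 31.1%, 32% and 31.8%. The median log2 change was 0.23, -0.33, -0.56 and -0.43 in KO cells at the 4 times and 0.43, 0.51, 0.29 and -0.49 in WT cells (0.35, 0.15, 0.17 and -0.47 without WT mice 1 and 4). Set against WT cells, KO cells had 9 members of the run lower at 6h (45%, against 7.59% of all genes) and 13 lower at 12h (65%, against 7.55%) and none higher, with medians of -0.60 and -0.73. There were 4 lower without WT mice 1 and 4 at 6h (20%, against 1.84%) and 11 at 12h (55%, against 8.85%), with medians of -0.47 and -0.62. Zfp820, which passed the level through WT libraries, was among the lower ones at both times with all mice and not called without WT mice 1 and 4. A run of 15 KRAB members at chr13:67038596-67827002 and one of 10 members at chr17:32765496-33631779 had 5 each lower in KO than in WT cells at 12h, and 6 each without WT mice 1 and 4. These were 33.3% and 50% of the 2 runs, against 7.55% of all genes, and 40% and 60% without those mice, against 8.85%. A run of 13 members on chromosome 7 had 3 lower at 12h (23.1%), and again 3 without WT mice 1 and 4. With all mice, the runs of 9, 8, 7 and 6 members had 0, 2, 3 and 0 lower and 1, 0, 0 and 1 higher at 12h.

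**Figure D4:**
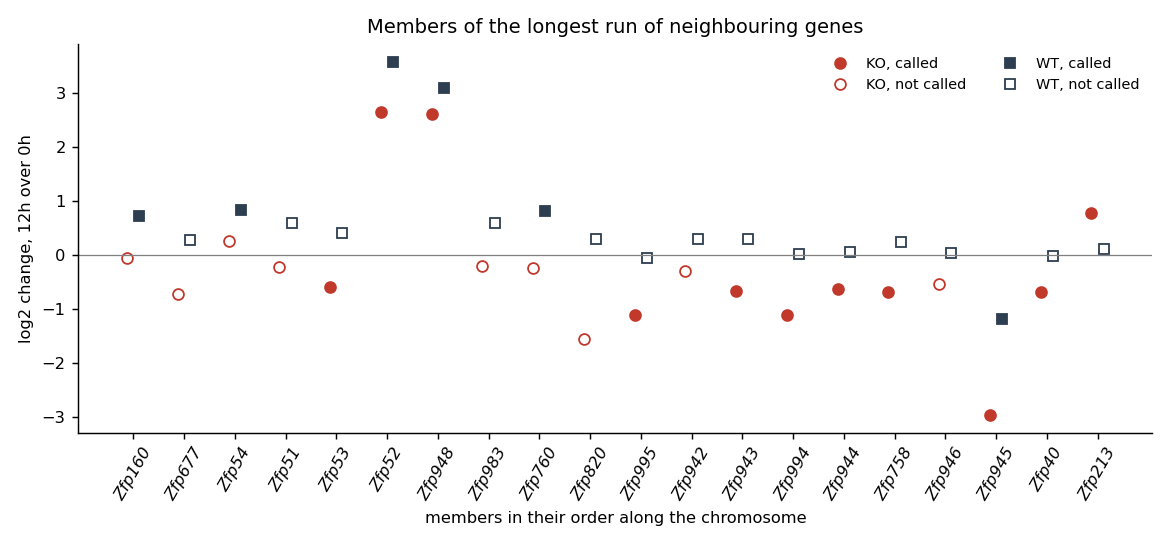
Log2 change at 12h over 0h for the 20 members of the chromosome 17 run, in their order along the chromosome, with KO circles left of WT squares, filled where called by edgeR. In KO cells 3 were called higher and 8 lower, and in WT cells 5 higher and 1 lower.

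Of 10 members that act on RNA, ribosomes or the spindle, in KO cells 4 rose and 1 fell at 2h (1 each with library totals), 5 rose at 6h, 7 at 12h and 6 at 24h, with none lower at these 3 later times. Of all genes 20.3%, 26.8%, 27.8% and 30.7% were higher and 19.6%, 22.4%, 25% and 28% lower. In WT cells 3 rose and 1 fell at 2h, 5 rose and 1 fell at 6h and at 12h, and 3 rose at 24h, with 14%, 20.2%, 19.3% and 19.9% of all genes higher. The shares of all genes lower in WT cells were 16.2%, 19.7%, 20.2% and 24.2%. In WT cells without mice 1 and 4 there were 4, 7, 6 and 4 higher, and 1 lower at each time. Of all genes 21.8%, 28.3%, 27.8% and 32.4% were then higher and 27.7%, 31.1%, 32% and 31.8% lower. With 10 genes these counts are a description. Zfp593, whose yeast counterpart Bud20 exports pre-60S ribosomal particles, changed by a log2 of 2.13 ± 0.30 in KO and 1.17 ± 0.29 in WT cells at 6h, and by 1.22 and 0.58 at 24h, the last not called. Zfp598, the ligase that marks collided ribosomes, changed by 0.93 in KO cells at 6h and by 0.50 in WT cells, not called with all mice and called without WT mice 1 and 4 (0.89). Zfp106, an RNA-binding protein needed by motor neurons, changed by 1.47 in KO and 0.99 in WT cells at 24h, and Zfp207 by 0.57 and 0.45, where the WT values were 1.64 and 0.85 without WT mice 1 and 4. Zfp622, whose yeast counterpart Rei1 works in cytoplasmic 60S maturation, was lower at 12h in WT cells (-0.81, called) and not called in KO cells (0.17). Its WT value was -1.34 without WT mice 1 and 4 and turned to 0.14 without WT mouse 3.

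Members tied to retroelement or imprint silencing in mouse were Zfp445, Zfp568, Zfp809 and Zfp932, and none of the 4 fell in either genotype. In KO cells 2 rose at 2h, all 4 at 6h, then 3 and 2 at the later times, and in WT cells 2 rose at each of 2h, 6h and 12h and none at 24h (1, 3, 3 and 1 without WT mice 1 and 4). Of all genes 20.3%, 26.8%, 27.8% and 30.7% rose in KO cells, and 14%, 20.2%, 19.3% and 19.9% in WT cells. At these times 19.6%, 22.4%, 25% and 28% of all genes fell in KO cells, and 16.2%, 19.7%, 20.2% and 24.2% in WT cells. Without WT mice 1 and 4, 21.8%, 28.3%, 27.8% and 32.4% of all genes rose in WT cells. With 4 genes these counts are a description. Zfp809, which binds the proline primer site of murine leukaemia virus and recruits Trim28 in mouse embryonic stem cells, stood at 65, 54.2, 63.8, 55.3 and 62.8 CPM at 2h in KO cells, against 24.2, 32.7, 29.1, 25.3 and 28.8 CPM at 0h. WT cells had 40, 62.3, 53.6, 53.5 and 59 CPM at 2h, against 26.8, 31.1, 69.5, 27.3 and 35.5 CPM at 0h. The groups did not overlap in KO cells, and WT mouse 3 was high at 0h. The log2 change of Zfp809 at 2h was 1.10 ± 0.17 in KO and 0.50 ± 0.17 in WT cells, and the WT value was 0.36 and not called without WT mice 1 and 4. Zfp568, a repressor of a placental Igf2 promoter in mouse, changed by 1.35 at 6h and 1.33 at 24h in KO cells, and by 0.49 and 0.68 in WT cells, not called with all mice and called without WT mice 1 and 4 (1.29 and 1.37). Zfp445, which maintains imprints, changed by 0.61 and 0.75 at 6h.

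Of the members with known roles in lymphocytes, Zfp91, Zfp318, Zfp335 and Zfp609 passed the level. Zfp609, tied to the control of Rag gene expression in mouse thymocytes, rose most. KO cells had 93.2, 115, 82.6, 94.2 and 63.4 CPM at 6h and 116, 155, 113, 135 and 134 CPM at 12h, against 26.5, 28.8, 7.01, 24.4 and 30.2 CPM at 0h. WT cells had 28.1, 61.3, 76.5, 49 and 58.1 CPM at 6h and 34.8, 64.4, 94.5, 47.5 and 56 CPM at 12h, against 70.4, 33.5, 8.09, 54.5 and 28.4 CPM at 0h. WT mice 1 and 4 started above the other WT mice and lay below them at 6h and 12h. The log2 change of Zfp609 at 12h was 2.48 ± 0.36 in KO cells (adjusted p = 3.56e-07) and 0.61 ± 0.34 in WT cells (adjusted p = 0.16), which became 1.55 without WT mice 1 and 4 (adjusted p = 0.000371). Zfp91, a ubiquitin ligase of noncanonical NF-kB signalling, changed by 0.55 at 2h in KO cells and by 0.32 in WT cells, not called. Zfp335, needed for T cell development in mouse, and Zfp318, which in mouse B cells controls the choice of IgM or IgD transcripts, were not called at any time against 0h with all mice, and Zfp318 was lower in WT cells at 12h without WT mice 1 and 4 (-0.89).

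Of 9 general promoter or chromatin factors, 5 rose and 2 fell at 2h in KO cells, where 20.3% of all genes rose and 19.6% fell. In WT cells 4 rose and 1 fell, against 14% and 16.2% of all genes (5 and 2 without WT mice 1 and 4, against 21.8% and 27.7%). Beside Zfp281 these were Zfp410, which drives Chd4 in mouse and human cells (0.63 in KO and 0.71 in WT), the SUMO ligase Zfp451 (0.76 and 0.51), Zfp644, a partner of the G9a and GLP methyltransferases (1.22 and 0.89), and in KO cells Zfp592 (1.07, and 0.42 in WT, not called with all mice and called at 0.55 without WT mice 1 and 4). Zfp143, an activator at many promoters, was lower in both (-0.70 and -0.49), and Zfp217 in KO cells (-0.78, and -0.50 in WT, called only without WT mice 1 and 4, at -0.74). By 24h 1 of the 9 was higher and 1 lower in KO cells and 1 higher in WT cells (none higher and 2 lower without WT mice 1 and 4), and none was higher in either with library totals or RLE size factors. Of all genes 30.7% were then higher and 28% lower in KO cells, and 19.9% and 24.2% in WT cells. Without WT mice 1 and 4 the WT shares were 32.4% and 31.8%. The 20 members with fewer than 3 fingers had 9 higher and 3 lower at 24h in KO cells and 4 higher and 3 lower in WT cells (5 and 4 without WT mice 1 and 4), beside 30.7% and 28% of all genes in KO and 19.9% and 24.2% in WT cells. The 11 SCAN members had 1 higher and 4 lower in KO cells and none higher and 4 lower in WT cells at 24h (3 and 5 without WT mice 1 and 4).

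Zinc finger genes of related families that are no members were counted in the same way. Of 34 Zbtb genes tested, which join a BTB domain to C2H2 fingers, 14 rose (41.2%, against 20.3% of all genes) and 2 fell at 2h in KO cells, and 9 rose (26.5%, against 14%) and 2 fell in WT cells. At 24h 5 were higher and 9 lower in KO cells (26.5% lower, against 28% of all genes) and 2 higher and 7 lower in WT cells (20.6%, against 24.2%), so the lower share lay near or below that of all genes. Of 18 Zkscan and Zscan genes, 3 rose and 4 fell at 2h in KO cells (16.7% and 22.2%) and 3 rose and 2 fell in WT cells, near the shares of all genes. At 24h 2 of them were higher and 9 lower in KO cells (50% lower) and none higher and 7 lower in WT cells (38.9% lower). Of all genes 19.6% fell at 2h in KO and 16.2% in WT cells, and 30.7% and 19.9% were higher at 24h. In WT cells without mice 1 and 4, Zbtb genes had 14 higher and 6 lower at 2h and 6 higher and 8 lower at 24h, and Zkscan and Zscan genes had 3 higher and 7 lower at 2h and 3 higher and 10 lower at 24h. The shares of all genes were then 21.8% higher and 27.7% lower at 2h, and 32.4% and 31.8% at 24h.

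Of the cofactors through which KRAB boxes act, 12 of 21 tested were higher and 4 lower at 24h in KO cells, against 30.7% and 28% of all genes. In WT cells 5 were higher and 4 lower (3 higher and 4 lower with library totals), against 19.9% and 24.2%, and 13 were higher and 4 lower without WT mice 1 and 4, against 32.4% and 31.8%. Trim28 changed by a log2 of 1.30 ± 0.25 in KO cells (adjusted p = 2.31e-05) and by 0.37 in WT cells (adjusted p = 0.22), which became 1.08 without WT mice 1 and 4. Setdb1 changed by 0.94 and 0.63, the chromatin remodeller Chd4 by 1.01 and 0.59, and the HUSH complex members Pphln1 by 1.42 and 0.90 and Mphosph8 by 0.84 and 0.45, each called in both genotypes. The WT values without mice 1 and 4 were 1.15 for Setdb1, 0.73 for Chd4, 1.56 for Pphln1 and 0.95 for Mphosph8. Chd3, the close relative of Chd4, changed by -1.83 and -1.37, and the Setdb1 partner Atf7ip by -1.34 and -1.21. The HUSH scaffold Fam208a (Tasor) changed by -1.19 and -0.79 and the histone H3.3 chaperone Daxx by -0.47 and -0.52.

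KO and WT cells differed in KRAB members at 6h and 12h, and nearly all of those called were lower in KO cells. At 6h 3 members were higher and 46 lower in KO than in WT cells, against 2.53% and 7.59% of all genes, and 38 of the 46 were KRAB members. At 12h 9 were higher and 58 lower, against 5.54% and 7.55% of all genes, with 1 KRAB member higher and 49 lower and 8 other members higher and 9 lower (10 higher and 7 lower with RLE size factors). Of the 8 members that passed the level through WT libraries, 3 were among the lower ones at 6h and 3 at 12h. The median log2 difference at 12h was -0.49 for KRAB members, -0.16 for other members and -0.10 for all genes, and at 6h it was -0.44 for KRAB and -0.11 for other members. At 12h every KO library lay below every WT library for 77 KRAB members (53.8%) and 23 others, against 11.4% of all genes, and above for 2 KRAB and 20 other members, against 13%. At 6h this was so for 43 KRAB and 14 other members below (5.51% of all genes) and for 1 and 4 above (5.5%).

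Without WT mice 1 and 4 the count of lower KRAB members was close to that with all mice at 12h and smaller at 6h. Then 21 members were higher and 60 lower in KO cells at 12h without them (13.9% and 8.85% of all genes), with 2 KRAB members higher and 48 lower and 19 others higher and 12 lower. The medians were -0.42 for KRAB members, 0.06 for others and 0.02 for all genes. At 6h 4 were higher and 14 lower without them (2.29% and 1.84% of all genes), 11 of the 14 with a KRAB box. With only the 10 libraries of 12h in the fit, 21 members were higher and 99 lower, 79 of these with a KRAB box, and with only those of 6h none was called. Libraries of one mouse count as independent in the fit of all times, so its adjusted p can be too small. With the mouse as a random effect the counts at 6h and 12h stayed within 1.5 times. Leaving out 1 mouse gave 6, 9, 13, 9 and 25 calls at 6h without KO mice 1 to 5, and 8, 64, 102, 10 and 50 without WT mice 1 to 5, against 49. At 12h it gave 24, 31, 34, 23 and 21 without KO mice 1 to 5, and 53, 53, 108, 37 and 52 without WT mice 1 to 5, against 67.

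**Figure D5:**
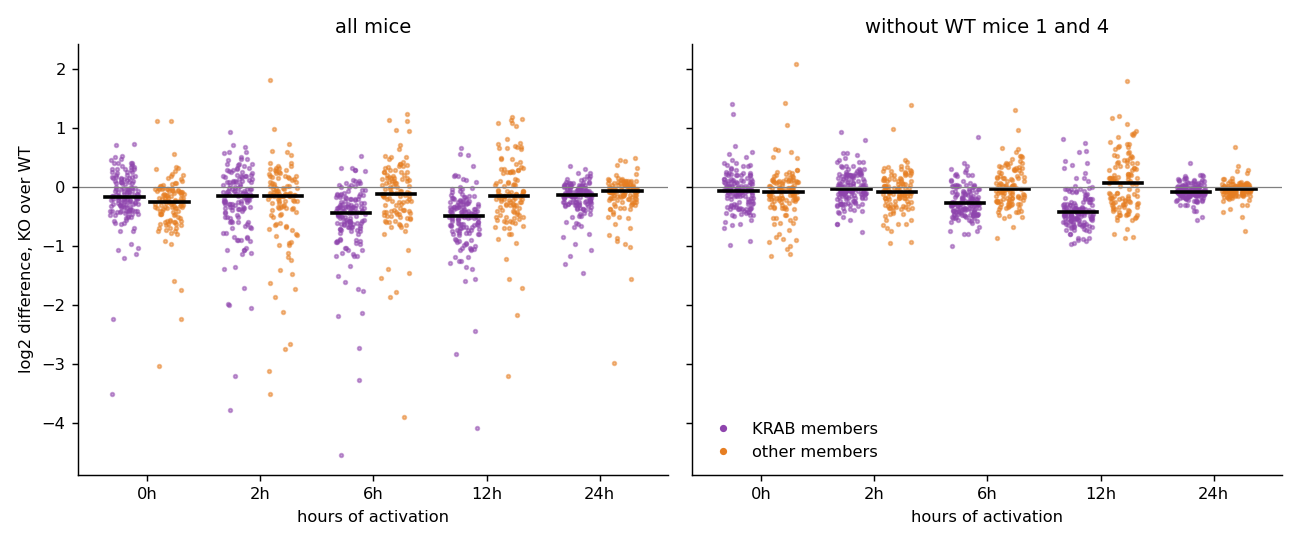
Log2 difference of KO and WT cells for each KRAB and other member at each time from edgeR, 1 point per member with the median as a black bar, from all mice (left) and without WT mice 1 and 4 (right). At 12h the medians are -0.49 for KRAB and -0.16 for other members with all mice, and -0.42 and 0.06 without those mice.

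At 0h and 2h fewer members differed, and those calls depended on single mice. At 0h none was higher and 12 were lower in KO cells (2.34% and 5.59% of all genes), 5 of them KRAB members. There were 5 higher and 37 lower without WT mice 1 and 4 (8.85% and 13.5%), with the mouse as a random effect 2 higher and 5 lower, and with library totals 1 higher and 1 lower. Leaving out KO mice 1 to 5 gave 1, 5, 3, 6 and 1 calls at 0h, and leaving out WT mice 1 to 5 gave 4, 26, 49, 2 and 31. At 2h 3 were higher and 34 lower (2.9% and 8.9% of all genes), 12 of the lower ones KRAB members. Without WT mice 1 and 4 there were 1 higher and 10 lower (1.83% and 2.2%), and with the mouse as a random effect 6 higher and 15 lower. Leaving out KO mice 1 to 5 gave 7, 11, 17, 11 and 9 calls at 2h, and leaving out WT mice 1 to 5 gave 10, 50, 74, 3 and 58. At 24h no member was called higher or lower by edgeR (0.00752% and 0.0376% of all genes), with 17 at an unadjusted p under 0.05, and DESeq2 called none. Zfp940 had the smallest p at 0h (-0.70, adjusted p = 0.00908; -0.49 without WT mice 1 and 4, adjusted p = 0.0151), and Zfp512 at 2h (-1.24, adjusted p = 0.000419; -0.64, adjusted p = 0.0013).

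The members with the smallest p at 12h were Zfp944, Zfp703, Zfp628, Zfp68 and Zfp157. Zfp944, a KRAB member of the chromosome 17 run, stood at 14.2, 13.7, 15.9, 13.8 and 12.7 CPM in KO cells at 12h, against 30, 24.5, 19.1, 27 and 23.8 CPM in WT cells. At 6h it stood at 16.6, 19.4, 16.9, 17.9 and 20.5 CPM in KO cells, against 47.9, 25.3, 25.6, 30.3 and 29.2 CPM in WT cells. Neither time had an overlap, and WT mouse 1 was the highest library at both. The log2 difference of Zfp944 was -0.79 ± 0.14 at 6h (adjusted p = 0.00165) and -0.82 ± 0.14 at 12h (adjusted p = 0.000387), and -0.57 and -0.64 without WT mice 1 and 4 (adjusted p = 0.00138 and 5.8e-05). Zfp68 stood at 35.3, 43.9, 38.8, 35.2 and 36.3 CPM in KO cells at 12h, against 85.3, 58.8, 52.5, 71 and 59.5 CPM in WT cells. No KO library reached a WT library. Its log2 difference was -0.79 ± 0.16 (adjusted p = 0.00181), and that of Zfp157 was -0.88 (adjusted p = 0.00315). They were -0.55 and -0.80 without WT mice 1 and 4 (adjusted p = 0.0011 and 0.000907).

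Zfp703 and Zfp628, which have no KRAB box, were higher in KO cells at 12h. Zfp703, the mouse counterpart of a breast cancer oncogene in human, has no C2H2 finger that matched the pattern used. It stood at 13.2, 14.8, 13.4, 13.2 and 15.3 CPM in KO cells at 12h, against 6.03, 5.68, 7.74, 6.41 and 5.74 CPM in WT cells. At 6h it stood at 18.8, 18, 17.2, 18.1 and 15.3 CPM in KO cells, against 5.05, 9.84, 10, 5.31 and 6.69 CPM in WT cells, also with no overlap. The log2 difference of Zfp703 was 1.24 ± 0.21 at 6h (adjusted p = 0.00136) and 1.15 ± 0.21 at 12h (adjusted p = 0.000992), and 0.96 and 1.17 without WT mice 1 and 4. Zfp628, with 16 fingers, stood at 30.8, 32.8, 32.6, 32.8 and 32.2 CPM in KO cells at 12h, against 15.8, 12.4, 18.3, 17.9 and 12.1 CPM in WT cells. At 0h the order was the other way, with 21.8, 25, 9.4, 25.5 and 19.2 CPM in KO cells, against 24.1, 33.1, 48.6, 24.6 and 28.1 CPM in WT cells. The log2 difference of Zfp628 was -0.65 ± 0.20 at 0h (adjusted p = 0.0419) and 1.08 ± 0.20 at 12h (adjusted p = 0.0013), and WT mouse 3 was the highest and KO mouse 3 the lowest library at 0h. The values of Zfp628 were -0.85 and 1.21 without WT mice 1 and 4 (adjusted p = 0.00485 and 0.000203).

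With all mice, the members called at 3 or more times in KO against WT cells were Zfp35, Zfp60, Zfp286, Zfp414, Zfp628, Zfp788, Zfp932 and Zfp940, comparisons that share no libraries but the same mice. Except for Zfp628 they were lower in KO cells at each of those times. Repeated calls were not counted over all genes, so they are not shown to be particular to the members. Of all genes 5.59%, 8.9%, 7.59% and 7.55% were lower in KO cells at 0h, 2h, 6h and 12h. At the same times 2.34%, 2.9%, 2.53% and 5.54% were higher. Zfp286 passed the level through WT libraries, so its difference is in part set by the choice of members. At 12h the log2 difference was -1.71 for Zfp286, -0.97 for Zfp60, -0.73 for Zfp788, -0.57 for Zfp35, -0.57 for Zfp932, -0.62 for Zfp940 and -0.50 for Zfp414. Without WT mice 1 and 4 these were -0.86, -0.67, -0.53, -0.52, -0.54, -0.54 and -0.29, and Zfp414 was no longer called.

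The difference between the KO and the WT change from 0h was tested as an interaction. At 2h no member was called by edgeR (0.015% and 0% of all genes were higher and lower), with 16 at an unadjusted p under 0.05, and DESeq2 called 1. At 6h 6 members had a higher and 5 a lower change in KO cells (2.09% and 0.376% of all genes), the 5 lower ones all with a KRAB box. At 12h 8 were higher and 13 lower (5.54% and 1.96% of all genes), with 2 KRAB members higher and 12 lower and a median of -0.40 for KRAB members, 0.04 for others and 0.04 for all genes. At 24h none was called by edgeR (0.015% and 0.0602%), with 12 at an unadjusted p under 0.05, and DESeq2 called none. With the mouse as a fixed block the counts were 6 higher and 13 lower at 6h and 12 higher and 30 lower at 12h. Leaving out WT mice 1 and 4, they were 12 higher and 7 lower at 6h (5.98% and 3.72% of all genes) and 24 higher and 24 lower at 12h (13.3% and 7.09%), with 3 KRAB members higher and 18 lower. With library totals they were 2 higher and 4 lower at 6h and 4 higher and 30 lower at 12h. Leaving out KO mice 1 to 5 gave 0, 2, 0, 0 and 6 calls at 6h and 8, 10, 9, 9 and 10 at 12h. Leaving out WT mice 1 to 5 gave 1, 15, 33, 2 and 13 calls at 6h and 23, 25, 45, 9 and 28 at 12h, against 11 and 21 with all mice.

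The largest named interaction at 12h was that of Zfp609, 1.87 ± 0.49 (adjusted p = 0.0122), which was 0.91 and not called without WT mice 1 and 4 (adjusted p = 0.146). Zfp628 had an interaction of 1.28 at 6h (adjusted p = 0.012) and 1.72 ± 0.29 at 12h (adjusted p = 0.000173), and of 1.26 and 2.07 without those mice. Zfp703 had 1.56 at 6h (adjusted p = 0.00702) and 1.46 ± 0.30 at 12h (adjusted p = 0.00163), and Zfp944 had -0.69 ± 0.20 at 12h (adjusted p = 0.0218). With WT mice 1 and 4 left out these were 1.33 and 1.54 for Zfp703 (adjusted p = 0.00332 and 0.000152) and -0.46 for Zfp944 (adjusted p = 0.0262). Zfp628 and Zfp703 were called in opposite directions at 6h in the genotypes, with 0.66 and 0.60 in KO and -0.62 and -0.96 in WT cells against 0h. The other member with opposite calls at 6h was Zfp777, named after its values were seen, with 0.38 in KO and -0.38 in WT cells. At 12h the opposite calls were Zfp628 (0.67 and -1.05), Zfp777 (0.35 and -0.44), Zfp689 (0.36 and -0.34) and, in the other direction, Zfp938 (-0.48 and 0.49), the last also named after its values were seen. In WT cells without mice 1 and 4 the calls of Zfp777 at 6h (-0.33), Zfp689 at 12h (-0.22) and Zfp938 at 12h (0.43) were lost. Opposite calls were not counted over all genes, so they are not shown to be particular to the members.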

How the data were processed

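Poly(A) RNA of splenic CD8+ T cells was sequenced with a stranded mRNA kit as single 50-nt reads, per the labels' protocols. The authors deposited raw counts per Ensembl gene, made with STAR 2.4 and featureCounts 1.4.6 after CASAVA 1.8.2 on build GRCm38, per the submitters' processing notes, with strand setting, multi-mapping and annotation not given in the sources used here. Of 21647 IDs, 21583 matched GENCODE M21, which gave symbols, positions and exons. Its translated longest coding sequences gave fingers, KRAB boxes (at least 10 of 16 positions) and SCAN domains (at least 9 of 12), where a RefSeq protein table had been planned, and BTB domains were not classified. All 50 columns were used, and their totals are the depth.

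Counts were tested in R 4.3.3 with edgeR 4.0.16 (TMM, minimum count 10 and minimum total 15, robust quasi-likelihood test, 10 group means in 1 fit, 40 residual degrees of freedom, Benjamini-Hochberg over 13294 genes, called at an adjusted p under 0.05). Alternatives were RLE factors, library totals, no filter, DESeq2 1.42.0, only the libraries compared, the mouse as a block, each mouse left out, and WT mice 1 and 4 left out together. The random mouse effect was fitted with limma 3.58.1 (voom, consensus correlation 0.243). The 5 times of one number are the same animal within a genotype, per the labels. The deviations of one mouse's libraries from their group means correlated on average at 0.212 to 0.356 in KO and 0.415 to 0.638 in WT mice, and the lowest single value was -0.0223, in KO mouse 5. Mice were separate animals, but cells of a mouse at different times came from 1 spleen. The procedure was tested on simulated counts of 13294 genes, some of them changed in KO cells at 24h. Against 0h it recovered 33% of the 2-fold and 71% of the 4-fold changes, with 2 false calls. A gene without a call can therefore still have changed. The simulated libraries were independent, without a mouse effect, and had the same spread in KO and WT cells. The simulation thus does not measure recovery or false calls in WT cells or between genotypes.

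Named members are those with the largest changes at 2h and 24h (up to 5 per direction and genotype), those called at all 4 times, the smallest p between genotypes (5 per time) and for the interactions (3 per time), those called between genotypes at 3 or more times, the role lists, the 5 highest levels and the 5 members on each side of the threshold. The members, lists and the exclusion of WT mice 1 and 4 were chosen with earlier results of these data known, so counts over a list are descriptions. The letters AGTGGGAGG were added after reading the promoters. The level of the knocked-out gene and a check of the genotype labels by it are not reported here.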

Additional observations from a re-analysis of the deposited data

Results flagged for a closer look

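Of 150 groups of 5 libraries checked over the summed levels and the members whose libraries are listed, 20 had a library far from the other 4 by Dixon's test, where chance gives about 1 in 20. WT mouse 1 at 24h was high in the KRAB sum (3215 CPM), the sum of the other members (6798 CPM), Zfp945 (22.8 CPM), Zfp652 (53.8 CPM), Zfp944 (19.2 CPM), Zfp68 (51.1 CPM) and Zfp628 (30.6 CPM), and low in Zfp239 (21 CPM). At 6h the same mouse was high in Zfp944 (47.9 CPM). WT mouse 4 at 24h was low in Zfp948 (18.4 CPM). WT mouse 3 at 0h was low in the sum of the other members (4562 CPM) and high in Zfp703 (20.4 CPM) and Zfp809 (69.5 CPM). Among KO libraries, mouse 1 was high in Zfp52 (139 CPM) and Zfp68 (92.3 CPM) at 2h and in Zfp652 (67.7 CPM) at 6h, and mouse 2 in Zfp652 (59 CPM) at 12h. KO mouse 3 at 0h was low in Zfp281 (41.9 CPM) and Zfp609 (7.01 CPM), and KO mouse 4 at 24h was high in Zfp609 (104 CPM).

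The change from 0h differed between KO and WT cells by the interaction test for Zfp628 (1.28 at 6h and 1.72 at 12h), Zfp703 (1.56 and 1.46), Zfp609 (1.87 at 12h) and Zfp944 (-0.69 at 12h), each as KO minus WT on the log2 scale.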

How the results depend on the processing

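Counts below are of members called. With only the libraries compared in the fit, the counts against 0h in WT cells were 2, 14, 10 and 28 at 2h, 6h, 12h and 24h, those between genotypes were 0 at 0h, 2h and 6h and 120 at 12h, and those of the interactions were 0 at 6h and 8 at 12h. Without WT mice 1 and 4 they were 123, 123 and 141 in WT cells at 2h, 12h and 24h, then 42, 11 and 18 between genotypes at 0h, 2h and 6h, and 19, 48 and 1 for the interactions at 6h, 12h and 24h. Library totals gave 2 between genotypes at 0h and 6 and 34 for the interactions at 6h and 12h. No filter on low counts gave 5 at 0h and 3 for the interaction at 6h. DESeq2 gave 1, 22 and 39 for the interactions at 2h, 6h and 12h. Pairing the libraries of a mouse by a random effect gave 7 and 21 between genotypes at 0h and 2h, and a fixed replicate block gave 19 and 42 for the interactions at 6h and 12h. The block moved no other count by over 1.5 times. The causes of these shifts were not tested.

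Leaving out 1 mouse at a time gave 90 to 145, 75 to 130, 84 to 132 and 95 to 141 calls against 0h in KO cells at the 4 times, and 132 to 182 for 24h against 2h. In WT cells the ranges were 60 to 96, 75 to 114, 46 to 92, 65 to 115 and 95 to 142. Between genotypes they were 1 to 49, 3 to 74, 6 to 102 and 21 to 108 from 0h to 12h, with 0 at 24h, and for the interactions 0 to 33 at 6h and 8 to 45 at 12h, with 0 at 2h and 24h. Of 480 called values of named members, Zfp365 in KO against WT at 2h turned to 0.10 without WT mice 1 and 4, and Zfp622 in WT cells at 6h and at 12h turned to 0.14 without WT mouse 3, the lowest values without 1 mouse being -0.98 and -1.06. No other named value changed sign under any alternative run. With only the libraries compared 176 of them lost their call, and with library totals 67 did.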
